A study of Sus scrofa with 6 samples.

Results

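MiR-335 is made from 1 hairpin, and the table of mature miRNAs held a row for each of its arms, miR-335-5p and miR-335-3p, among 1143 rows in all. The members were taken by name, as every row whose first name begins with ssc-miR-335, ssc-miR-483 or ssc-miR-675, and the 2 arms of miR-335 were the rows taken. MiR-483 and miR-675 were not analysed here. A hairpin is cut by Drosha and Dicer into a short duplex, of which either strand can enter an Argonaute protein and then guide it to mRNAs through the seed, the bases near the 5′ end. The strand that is more often kept is the guide and the other the passenger strand. In mouse and human the miR-335 hairpin lies in an intron of MEST (also called PEG1), a gene of mesoderm that is expressed from the paternal allele, so miR-335 is counted among the imprinted miRNAs. MiR-335-5p is known for repressing SOX4 and TNC in human breast cancer cells and the Wnt inhibitor DKK1 in mouse osteoblast precursors, and for rising in the fat of obese mice.

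The samples were 3 Meishan (MS) pigs, labelled obese, and 3 Large White (LW) pigs, labelled lean, all female, and small RNA libraries were made from their longissimus dorsi muscle, 1 per animal. The paper describes fetuses at 35 days post-conception (dpc), taken from separate sows, whereas the labels give adults of 2 years. No treatment, transgene or deletion is named for either breed. The values, called normalized reads here, are reads that the authors scaled by the mappable reads of the library, counted for the commonest sequence of a miRNA alone, so other length variants of an arm are not in them. The libraries held 1038986 to 3419270 reads of listed miRNAs, with the fewest in MS replicate 3, and these values stood for 14541 to 24764 reads of miR-335-5p in MS and 12838 to 25162 in LW, and for 4400 to 14865 reads of miR-335-3p in MS and 1812 to 3220 in LW. The muscle-enriched miR-1, miR-133, miR-206, miR-208b and miR-499 were detected, with a sum of 66570 to 97610 normalized reads in MS and 20124 to 25074 in LW. All 12 of their arms tested were called higher in MS, against 34.1% of all 548 miRNAs tested. These arms differ in GC content, with 22.7% in miR-1-3p and 54.5% in miR-133a-3p. MiRNAs poor in G and C were mostly called higher in MS, as given with the GC values below. The part of GC content in this count was not tested. In such bulk tissue, fewer cells of a type and less RNA per cell cannot be told apart.

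The sequences show how the members relate. The 80-base hairpin of the study's hairpin table, whose length is that of the RefSeq gene MIR335, is printed with both mature arms in capitals, and the mature sequences are printed with the seed (bases 2 to 8) in capitals, all 5′ to 3′ as DNA letters.
ssc-mir-335: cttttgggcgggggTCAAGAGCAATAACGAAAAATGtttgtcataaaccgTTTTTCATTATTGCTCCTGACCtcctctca
ssc-miR-335-5p: tCAAGAGCaataacgaaaaatg
ssc-miR-335-3p: tTTTTCATtattgctcctgacc

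In the coordinates of the study's hairpin table (build Sscrofa10), the locus spans chr18:19337982-19338080 on the minus strand, a span of 99 bases that is longer than the 80-base sequence printed here. In the RefSeq annotation of a later pig assembly, Sscrofa11.1, MIR335 lies inside MEST and inside no other gene, and COPG2 is the protein-coding gene that overlaps MEST. The 5p arm covers bases 15 to 36 of the hairpin and the 3p arm bases 51 to 72, with 14 bases between them. Folded with RNAfold, the hairpin had a minimum free energy of -38.7 kcal/mol and 18 base pairs between the arms, and each arm had 2 unpaired bases. Both mature sequences have 22 bases, and both are poor in G and C, with 7 such bases (31.8%) in the 5p arm and 8 (36.4%) in the 3p arm. Their seeds, CAAGAGC and TTTTCAT, differ from each other, and no other row of the table had either of them, so neither arm has a listed seed family.

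The 5p arm was the abundant one in both breeds, and its normalized reads did not separate them. MiR-335-5p had 17820, 16700 and 24602 normalized reads in MS replicates 1, 2 and 3, against 16084, 20468 and 13644 in LW replicates 1, 2 and 3. The breeds overlapped, and the animals of one breed lay further apart than the breed means of 19707 ± 4276 in MS and 16732 ± 3458 in LW (SD, n = 3 each). The log2 fold change (MS over LW) was 0.23 with a standard error (SE) of 0.25. It did not pass limma's test (adjusted p = 0.419), which ran over the 548 miRNAs whose average reached 10 normalized reads in MS or in LW and called those with an adjusted p under 0.05. The 95% interval, -0.31 to 0.78, spans differences in either direction. Of the 548 miRNAs, 62.2% were called in one direction or the other, and in 67.7% the breeds did not overlap, so miR-335-5p was among the minority on both counts. By its mean, miR-335-5p ranked 27 of the 1143 miRNAs in MS, between let-7f-5p and let-7g-5p, and 38 in LW, between miR-30e-5p and miR-423-3p. Those neighbours in rank lay within its own spread. In single libraries its rank was 18 to 32 in MS and 34 to 41 in LW.

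The 3p arm, which would be called the passenger strand by its lower level, was higher in every MS animal. MiR-335-3p had 10696, 8715 and 7444 normalized reads in MS replicates 1, 2 and 3, against 2270, 2619 and 2514 in LW replicates 1, 2 and 3. The lowest MS animal lay far above the highest LW animal. The means were 8952 ± 1639 in MS and 2468 ± 179 in LW (SD, n = 3 each). MiR-335-3p was called higher in MS by limma, at 1.85 on the log2 scale with an SE of 0.24 (adjusted p = 5.3e-05), a 3.59-fold difference. A correction for GC content, described with the GC values, ended this call (0.23, limma's adjusted p = 0.34), and the breeds then overlapped. Such a call was common in these libraries. Of the 548 miRNAs tested, 34.1% were called higher in MS and 28.1% lower, and 36.7% had all MS animals above all LW animals. With the libraries scaled to equal sums, 232 miRNAs were called higher and 118 lower in MS, against 187 and 154 with the authors' scaling, and the median of all tested miRNAs, 0.11 on the log2 scale, moved up by 0.43. MiR-335-3p then had 2.28 and miR-335-5p 0.67 (limma's adjusted p = 0.053). Such a scaling moves every abundant miRNA by nearly the same amount, so their places relative to the median hardly change. By its mean, miR-335-3p ranked 43 in MS, between miR-151-5p and miR-30c-5p, and 101 in LW, between PN-74-5p and miR-130a-3p, all within its spread. In single libraries its rank was 42 to 48 in MS and 99 to 103 in LW.

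**Figure D1:**
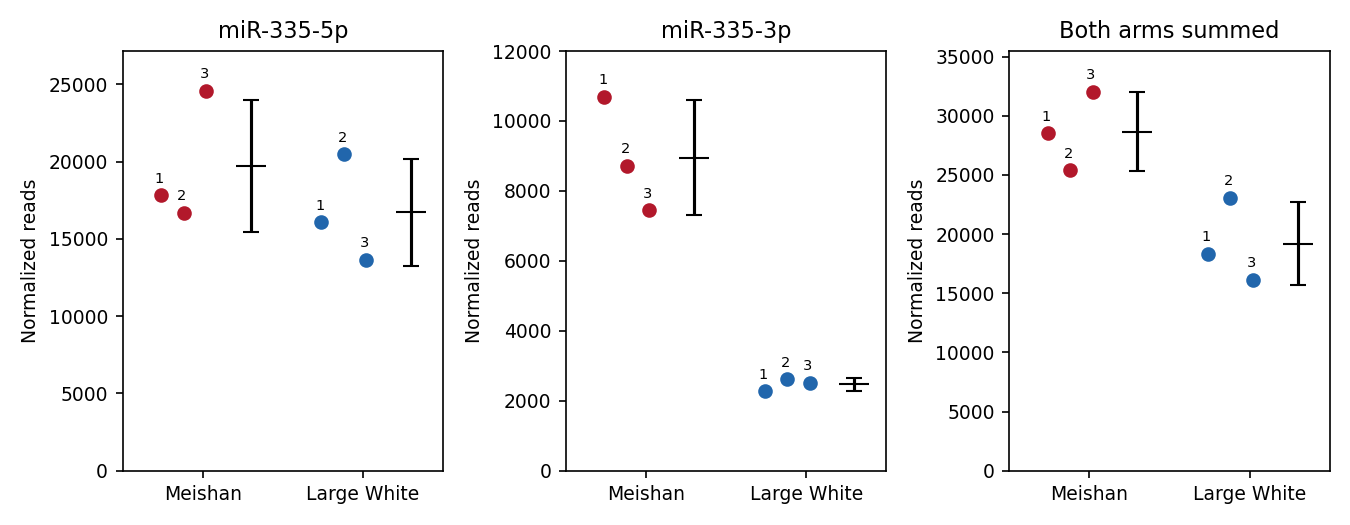
Normalized reads (linear axis from 0) of miR-335-5p, miR-335-3p and their sum in the 3 Meishan and 3 Large White animals, numbered by replicate; bars give the mean and SD. The breeds overlap for the 5p arm, while the 3p arm lies at 7444 or more in Meishan and at 2619 or less in Large White.

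Together the arms gave 28516, 25415 and 32047 normalized reads in the MS animals, against 18354, 23087 and 16158 in the LW animals. The sum was thus higher in every MS animal, by 1.49 times on average, at the smallest p that 3 animals against 3 allow (two-sided exact permutation test, p = 0.10). Of the mean difference of 9460 normalized reads, the 3p arm held 6484 and the 5p arm 2976. As a share of the reads of all listed miRNAs, miR-335-3p was nearly constant within a breed, at 0.438% ± 0.0147 in MS and 0.0899% ± 0.0040 in LW (SD, n = 3 each). The share of miR-335-5p varied more, at 0.997% ± 0.351 in MS and 0.612% ± 0.135 in LW (SD, n = 3 each), and by this measure the lowest MS animal (0.754%) lay just above the highest LW animal (0.736%).

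The arms can also be set against each other within a library, as the share of hairpin reads that came from the 3p arm. The 3p arm gave 37.5%, 34.3% and 23.2% of the reads of both arms in MS replicates 1, 2 and 3, against 12.4%, 11.3% and 15.6% in LW replicates 1, 2 and 3. No LW animal reached the lowest MS animal, although MS replicate 3 lay nearer to LW than the other MS animals did. The mean share was 31.7% ± 7.49 in MS and 13.1% ± 2.20 in LW (SD, n = 3 each), a difference of 18.6 percentage points (two-sided exact permutation test, p = 0.10). Counting error was small beside this, since the widest 95% Wilson interval of a library reached 0.601 percentage points to either side (that interval covers counting error only). Expressed as a ratio, the 5p arm had 1.67 to 3.30 times the reads of the 3p arm in MS and 5.43 to 7.81 times in LW, so it remained the leading arm in all 6 animals.

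**Figure D2:**
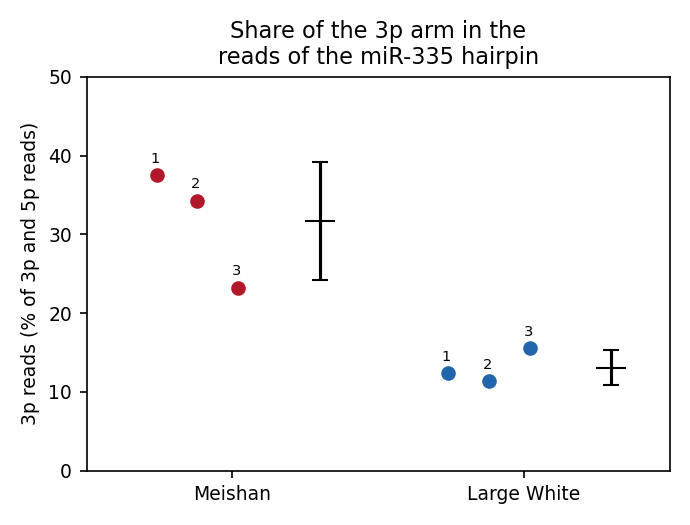
Share of miR-335-3p in the reads of both miR-335 arms (percent, axis from 0) in each animal, numbered by replicate; bars give the mean and SD. The 3 Meishan animals lie at 23.2% to 37.5% and the 3 Large White animals at 11.3% to 15.6%.

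The difference between the arms was then tested across all hairpins, on the log2 ratio of 3p to 5p in each library, in which the scaling of the library cancels. For miR-335 the ratio was higher in MS by 1.61 on the log2 scale (SE 0.34, 95% interval 0.83 to 2.39, adjusted p = 0.0035 from limma over 173 hairpins with both arms tested). The breed difference of miR-335-3p was thus larger than that of miR-335-5p beyond the spread between animals. It was not unusual in size. Of the 173 hairpins, 64.2% were called for their ratio, 35.8% with a higher ratio in MS and 28.3% with a lower one. All MS animals lay above all LW animals in 37.0% of them, as for miR-335, and the breeds did not overlap in 69.4%. The median size of the difference, in either direction, was 1.47, and miR-335 held place 48 from the top of an order that ran from 6.28 to -7.02. The next above it was miR-151 (1.62), whose 5p arm was called lower in MS (-1.35) while its 3p arm had 0.27, and the next below was miR-185 (1.59), with both arms called lower in MS, the 5p arm more (-3.19) than the 3p arm (-1.60). MiR-335 differed from both in that its 3p arm was called higher and its 5p arm was not called, which held for 19 of the 173 hairpins. The leading arm changed between the breeds in 19 hairpins, and miR-335 was not among them.

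**Figure D3:**
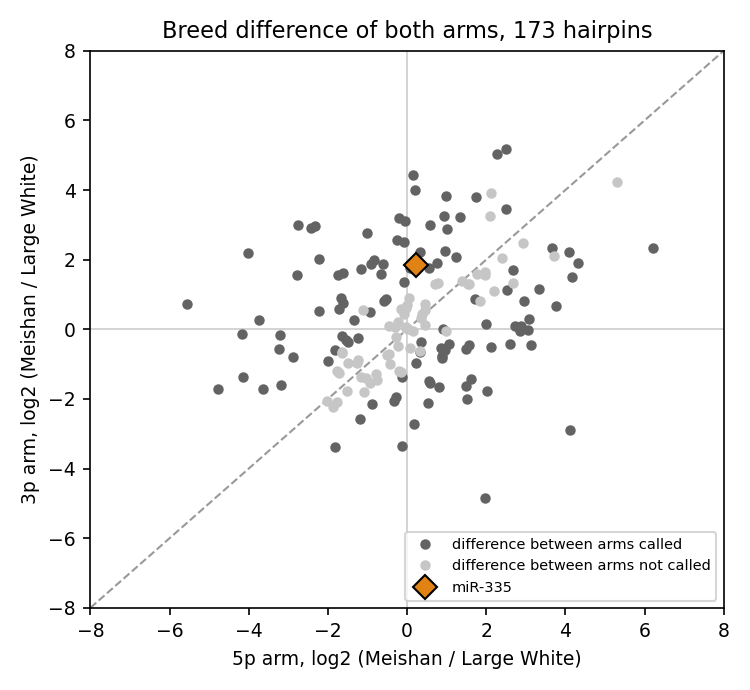
Log2 fold change (Meishan over Large White) of the 5p arm (horizontal) and the 3p arm (vertical) of 173 hairpins; dark points passed the test of the 3p to 5p ratio, light points did not, and the dashed line marks equal change of both arms. MiR-335 lies above the line, at 0.23 for the 5p arm and 1.85 for the 3p arm, within the cloud of other hairpins.

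Both arms are low in GC content, and their values were set beside those of miRNAs alike in this. MiRNAs this poor in G and C were mostly called higher in MS. Of the 64 tested miRNAs with a GC content from 31.8% to 36.4%, the range spanned by the miR-335 arms, 45 were called higher and 3 lower in MS. Their median log2 fold change was 1.81 (quartiles 0.56 and 2.96), against 0.11 for all 548. This window was chosen after the values were seen. MiR-335-3p stood 0.03 above that median, and 30 of the 64 had a larger value, whereas miR-335-5p stood 1.58 below it, with 13 of the 64 lower still. After a loess correction for GC content within each library, miR-335-5p was called lower in MS, at -1.96 (adjusted p = 0.00031 from limma), and miR-335-3p was no longer called, at 0.23 (adjusted p = 0.34). The ratio of 3p to 5p remained called and was 2.19 (adjusted p = 0.0012). The source of the GC trend was not tested.

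**Figure D4:**
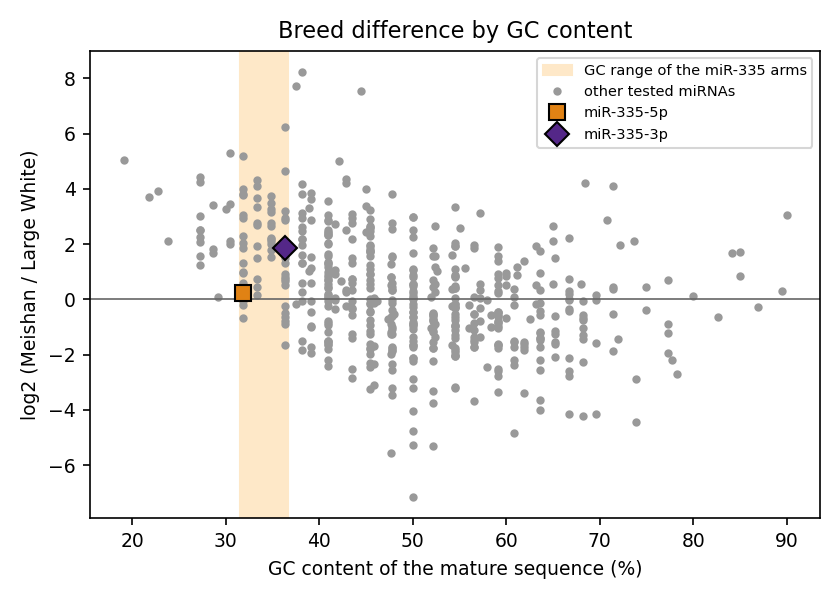
Log2 fold change (Meishan over Large White) of 548 tested miRNAs against the GC content of the mature sequence (percent); the band marks the GC range of the miR-335 arms. MiR-335-3p (1.85) lies at the median of the band (1.81) and miR-335-5p (0.23) in its lower part.

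The arms also differed in which other miRNAs they followed across the 6 libraries. These likenesses are given as Pearson's r of the log2 values, a description over 6 libraries that share depth and breed. The arms themselves had an r of 0.37. MiR-335-3p was most like miR-1-3p (r = 0.998), the muscle-specific miRNA of the differentiated myofiber, miR-142-5p (0.996), which marks blood cells, and PN-70-3p (0.996), which matches mir-590 of other mammals. All 3 were called higher in MS, by 3.92, 4.09 and 5.04 on the log2 scale, and an r above 0.9 was reached by 142 of the 547 other miRNAs. All 3 are also poor in G and C (22.7%, 33.3% and 19.0%), and every r here was taken without the GC correction. A link of miR-335-3p to a cell type was not tested. MiR-1-3p had 7918, 6598 and 4216 normalized reads in MS replicates 1, 2 and 3, against 363, 434 and 397 in LW replicates 1, 2 and 3, and so was highest in MS replicate 1 and lowest in MS replicate 3 among the MS animals, as miR-335-3p was. MiR-335-5p was most like PN-28-5p (0.948), which matches mir-216b, miR-124a-3p (0.930) and miR-9-1-3p (0.928), the last 2 known for neurons and their precursors. No other miRNA of the 547 reached 0.9 with it. MiR-124a-3p had 108, 67.5 and 236 normalized reads in MS replicates 1, 2 and 3, against 52.0, 105 and 54.3 in LW replicates 1, 2 and 3. Like miR-335-5p it was highest in MS replicate 3 among the MS animals and in LW replicate 2 among the LW animals. MiR-1-3p and miR-124a-3p were named for their r over these same values, so the shared orders add nothing to it.

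Summed markers of other cell types differed between the breeds, and their part in the miR-335 values was not tested. Their counts of called arms stand beside 34.1% called higher and 28.1% called lower over all tested miRNAs, and no list was tested as a whole. Members of the lists differ in GC content, with 33.3% in miR-142-5p and 59.1% in miR-140-3p. The sums and counts were not corrected for it. The neural list (miR-9, miR-124, miR-128, miR-129, miR-137, miR-218 and miR-219) summed to 19094 to 25604 normalized reads in MS, highest in replicate 3. In LW it summed to 9059 to 13035, highest in replicate 2. Of its 18 tested arms, 10 were called higher and 1 lower in MS. MiR-124a-3p (mean 137 in MS and 70.6 in LW) and miR-9-1-3p (123 and 118) held little of these sums. The leukocyte list summed to 1413 to 1796 in MS and 287 to 451 in LW, with 3 of 5 tested arms higher, and the erythroid list to 6107 to 10782 in MS and 3510 to 4571 in LW, with 3 of 4 higher. The epithelial list, with 3 of 5 tested arms higher and 1 lower, summed to 464 to 1355 in MS and 217 to 348 in LW. The cartilage list of miR-140 and miR-455 went the other way in sum, with 7681 to 14936 in MS and 63660 to 81035 in LW. Of its 4 tested arms, 2 were called lower, miR-140-3p (log2 difference -3.34) and miR-455-3p (-2.12). MiR-140-5p (-0.12) and miR-455-5p (0.54) were not called. None of these lists had a member at 0 in all libraries.

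Other miRNAs of the same stretch of chromosome 18 are given next. Hairpins named PC in the hairpin table were left out here. Of the rest, 7 other hairpins lay within 2 Mb of mir-335, with 13 arms. Of these arms 7 were tested, and 2 were called higher and 1 lower in MS. With 34.1% called higher and 28.1% lower over all tested miRNAs, these counts are no result about the stretch. The median log2 fold change of these 7 was -0.24. The nearest were mir-29a and mir-29b-1, 0.303 Mb away on the plus strand, whose miRNAs repress collagens and other matrix genes. The row of miR-29a-3p, which also holds the identical miR-29c-3p from another locus, had 227, 185 and 354 normalized reads in MS replicates 1, 2 and 3, against 37.6, 24.8 and 32.9 in LW replicates 1, 2 and 3, without overlap. Its log2 difference was 2.93 with an SE of 0.36 (limma, adjusted p = 3.1e-05). MiR-29b-3p, shared by 2 loci likewise, was also higher (log2 difference 3.16, limma's adjusted p = 8.1e-05), at 26.6 to 45.7 normalized reads in MS and 2.5 to 3.2 in LW. With a GC content of 36.4% and 34.8%, both lie in the window described for miR-335, and after the GC correction they were still called, at 1.31 and 1.34. MiR-183-5p, 0.693 Mb away and known from sensory cells, had 125, 88.1 and 117 normalized reads in MS replicates 1, 2 and 3, against 350, 614 and 602 in LW replicates 1, 2 and 3, and was lower in MS (-2.21, adjusted p = 0.00013 from limma). MiR-182-5p, from the same cluster, overlapped between the breeds at 354 to 565 normalized reads in MS and 432 to 707 in LW and did not pass (-0.37, and -0.57 to -0.18 without single libraries). The row of miR-129-5p joins miR-129b-5p with miR-129a-5p, whose hairpin was not listed in this stretch. MiR-129-5p (0.55), miR-129b-3p (-0.24) and PN-8-5p (-0.97), which were at or under 144 normalized reads in every library, did not pass either. The GC correction changed these calls too. MiR-182-5p was then called lower in MS (-1.17, limma's adjusted p = 0.0052), as was PN-8-5p (-2.21, adjusted p = 0.0042), and miR-129-5p was called higher when the replicate block was added (1.21, adjusted p = 0.026).

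Imprinted miRNAs of 2 other domains form the last comparison. In mouse and human, many imprinted miRNAs lie in the DLK1-DIO3 domain, where they come from the maternal chromosome. Some lie in the GNAS domain, and further imprinted clusters were not looked at here. Of 40 tested arms of the DLK1-DIO3 domain, 21 were called higher and 8 lower in MS, and their median log2 fold change was 0.88, against 187 higher and 154 lower of 548 and a median of 0.11 over all tested miRNAs. In sum this domain held 274083 to 407089 normalized reads in MS and 312975 to 337811 in LW, overlapping between the breeds, and thus many times the reads of miR-335. From the GNAS domain, miR-296-3p had 3881, 2962 and 2986 normalized reads in MS replicates 1, 2 and 3, against 3950, 6023 and 4746 in LW replicates 1, 2 and 3. Every MS animal lay below every LW animal, the nearest by little, and the log2 fold change of -0.57 did not pass the test (SE 0.26, limma's adjusted p = 0.075), although edgeR (-0.64) and DESeq2 (-0.67) called it lower. Its other arm, miR-296-5p, had at most 5.08 normalized reads in any library and was not tested. Neither domain was expressed in one breed alone, and the alleles of origin cannot be read from these values.

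**Figure D5:**
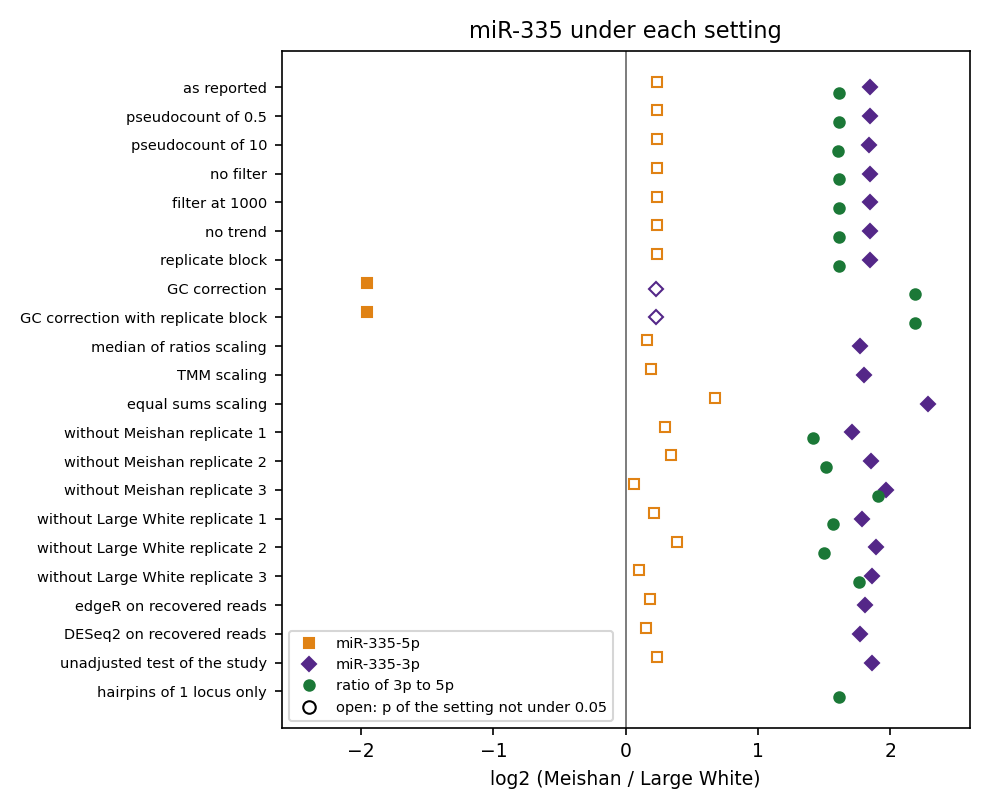
Log2 difference between Meishan and Large White (horizontal) for miR-335-5p, miR-335-3p and their 3p to 5p ratio under each setting of the analysis (vertical); filled symbols passed the threshold of that setting and open ones did not. The ratio stays between 1.41 and 2.19 and filled, whereas with the GC correction the 5p arm moves to -1.96 and the 3p arm to 0.23.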

How the data were processed

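The authors removed adapters, junk and other small RNA classes with ACGT101-miR (version not given in the sources used here), mapped reads with BLAST to miRBase and the pig genome, and deposited a signal, the reads of each miRNA's most abundant sequence scaled by total mappable reads. The deposited breed means were not tested. Low values were multiples of 1 step per library: of those up to 20 reads, 93.29% to 95.72% were whole within 0.1 read, and reads recovered this way served edgeR and DESeq2 only. Breeds were compared with limma 3.58.1 (R 4.3.3) on log2(normalized reads + 1), eBayes with trend, Benjamini-Hochberg adjustment and a threshold of 0.05. Arm ratios used the same fit. Fold changes on this scale understate those of low miRNAs. The fits were tested on simulated reads. Members, lists and tests were chosen with earlier results of these data known, and an unadjusted test of the study's kind was kept as an alternative. Other miRNAs named are hairpins within 2 Mb of mir-335 (without those named PC), miR-296, the 3 miRNAs most like each arm and the neighbours in rank. Alternatives were pseudocounts of 0.5 and 10, 3 scalings, other filters, no trend, a replicate block, a GC correction (loess, span 0.75), edgeR 4.0.16, DESeq2 1.42.0 and leaving out each library. Sequences and positions came from the study's hairpin table and were folded with RNAfold 2.7.2. A further 4 lines were not analysed here.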

Additional observations from a re-analysis of the deposited data

How the results depend on the processing

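The higher 3p to 5p ratio of miR-335 was called under all 15 alternatives run for it, at 1.41 to 2.19, and without single libraries at 1.41 to 1.91. MiR-335-3p was called at 1.71 to 2.28 in the 18 alternatives without a GC correction (1.71 to 1.97 without single libraries), and miR-335-5p was not called there, at 0.06 to 0.67 (0.06 to 0.39). With the GC correction, alone or with the replicate block, miR-335-5p was called lower at -1.96 and miR-335-3p was not called at 0.23; the cause was not tested. The share of the 3p arm differed by 15.7 to 22.8 percentage points without single libraries. Calls numbered 341 over all miRNAs, 122 with the filter at 1000 normalized reads and 110 with an unadjusted test of the study's kind, both over 179 miRNAs only, and 345 with edgeR and 347 with DESeq2. They numbered 300 to 365 without single libraries. Calls of arm ratios numbered 111, 16 of 27 hairpins above 1000 normalized reads, and 89 to 108 without single libraries. The replicate block gave 332 calls and 107 for ratios, and changed no miR-335 call. Same-numbered libraries did not deviate together (r = 0.005, -0.21 and 0.097). With 3 libraries per breed, these values cannot settle whether the numbers pair animals. Of rows not called, the sign turned for miR-182-5p (0.072) and miR-129b-3p (0.14) with equal sums, for miR-129b-3p without MS replicate 2 (0.35) or LW replicate 2 (0.27; -0.71 to 0.35 without single libraries), for miR-129-5p without MS replicate 3 (-0.024 to 0.86 without single libraries), and for miR-296-3p with the GC correction, alone or with the block (0.092). Of the same rows, miR-296-3p gained a call with median of ratios (-0.65), edgeR (-0.64) and DESeq2 (-0.67), miR-182-5p (-1.17) and PN-8-5p (-2.21) with the GC correction, alone or with the block, and miR-129-5p (1.21) with both together. MS replicate 3, with the fewest reads, resolves values no finer than 1.69 normalized reads, which limits the rows of a few reads and not the miR-335 arms.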
